A study of Mus musculus with 12 samples.

Results

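The subunits of the mitochondrial respiratory chain and ATP synthase were examined as a set of 43 genes, chosen by symbol as subunits of complexes I, III and IV, cytochrome c and ATP synthase. The count table holds 28188 gene symbols, and all 43 subunits were among them. The mitochondrial genome encodes 9 of them and the nuclear genome 34, and the 2 genomes are described apart. The genes were chosen by symbol and not by a cutoff on measured values, but with earlier results of these data known. The study asked what the Idd2 locus of B10 origin does to the transcriptome of the nonobese diabetic (NOD) mouse, a strain that develops autoimmune diabetes. RNA-seq was done on isolated splenic B cells and splenic dendritic cells of mice aged 12 weeks, in NOD and in NOD.Idd2, the congenic strain that carries the B10-derived Idd2 segment on the NOD background. Each of the 4 groups (B cells of either strain and dendritic cells of either strain) held 3 libraries made from poly(A) RNA, and the labels name no treatment. Whether the 3 libraries of a group came from 3 mice is not stated, so the p-values below measure the spread between these libraries, which may be technical.

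The respiratory chain passes electrons from NADH through complex I, ubiquinone, complex III and cytochrome c to oxygen at complex IV, pumping protons across the inner mitochondrial membrane. ATP synthase uses the proton gradient to make ATP. The mitochondrial genome encodes a few hydrophobic core subunits, which are transcribed as long polycistronic RNAs and cut apart, whereas the other subunits come from nuclear genes and are imported. Resting B cells rely largely on oxidative phosphorylation, and dendritic cells move towards glycolysis on activation.

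Library totals were 40344883 to 44632276 counts in the 6 B cell libraries and 22769062 to 30337812 in 5 of the dendritic cell libraries. The remaining dendritic cell library, NOD.Idd2 replicate 3, held 8663421 counts. Markers of the labelled cells were in place: 6 B cell genes summed to 9492 to 9928 CPM (counts scaled to 1000000 per library) in B cells and 32.9 to 74.4 in dendritic cells, and 6 dendritic cell genes to 3688 to 3968 CPM in dendritic cells and 9.22 to 11.0 in B cells. Monocyte and macrophage genes summed to 311 to 403 CPM in dendritic cells and 21.4 to 32.7 in B cells, and plasma cell genes to 482 to 606 CPM in B cells and 150 to 264 in dendritic cells. Xist, the RNA of the inactive X chromosome, stood at 1560 to 2090 CPM in B cells and 0.041 to 0.154 in dendritic cells, while the Y-linked Ddx3y was at 0 in all B cell libraries and at 239 to 306 CPM in dendritic cells. Cell type and the sex of the animals therefore cannot be told apart in any comparison of dendritic with B cells below. Both B cell replicate 3 libraries stood apart from the other B cell libraries: over 16588 tested genes the deviations of NOD replicate 3 and NOD.Idd2 replicate 3 from their group means correlated at 0.753, and several subunits described below were lower in both.

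The sequences that matter most for reading these counts lie in the mitochondrial genome and in a nuclear copy of part of it on chromosome 1. In GENCODE M21 (GRCm38) that copy runs along the minus strand of chr1:24611535-24616197 and holds pseudogenes of mt-Nd4, mt-Nd4l, mt-Nd3, mt-Co3, mt-Atp6, mt-Co2 and mt-Co1. Shown are 60-base stretches of mt-Co2, which encodes a catalytic subunit of complex IV, of mt-Nd4, a membrane subunit of complex I, and of mt-Co1, the other catalytic subunit of complex IV, each with the matching stretch of its copy. The stretches lie at chrM:7323-7382 and chr1:24615196-24615255 for mt-Co2, at chrM:10575-10634 and chr1:24611943-24612002 for mt-Nd4, and at chrM:6381-6440 and chr1:24616138-24616197 for mt-Co1. The mitochondrial stretches are on the plus strand and the copies on the minus strand. Capitals mark bases that differ.
mt-Co2: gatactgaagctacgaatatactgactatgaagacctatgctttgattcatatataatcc
Gm28661: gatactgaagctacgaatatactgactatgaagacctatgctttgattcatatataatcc
mt-Nd4: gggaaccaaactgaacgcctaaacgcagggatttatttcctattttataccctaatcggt
Gm28439: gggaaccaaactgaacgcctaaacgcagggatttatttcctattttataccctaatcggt
mt-Co1: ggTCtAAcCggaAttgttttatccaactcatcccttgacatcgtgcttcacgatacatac
Gm29216: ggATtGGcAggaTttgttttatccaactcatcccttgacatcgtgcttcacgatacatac
The mt-Co2 copy matched 681 of the gene's 684 bases without a difference, and the copies of mt-Co3 (783 bases), mt-Atp6 (678 bases) and mt-Nd4 (876 of 1378 bases) were identical over their whole length too. The mt-Co1 copy covered the last 492 of 1545 bases and differed at 6 of them, T1056A, C1057T, A1059G, A1060G, C1062A and A1066T, counted from the gene's first base with the mitochondrial base first.

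Windows of 50 bases give a measure of how much of a transcript a short read could not place uniquely. Of the windows of mt-Co2, 100% also occurred in another annotated transcript, of mt-Co3 99.9% and of mt-Atp6 99.5%. The share was 62.2% for mt-Nd4, 51.1% for mt-Co1, 8.19% for mt-Nd2, 7.61% for mt-Nd5 and 0 for mt-Nd1 and mt-Cytb. Neither the counting tool nor its rule for reads that fit more than 1 place is given in the sources used here.

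The 3 genes with nearly all windows shared had few counts or none. mt-Co2 had 619, 263 and 0 counts in the NOD B cell libraries and 631, 255 and 0 in the NOD.Idd2 B cell libraries. In dendritic cells mt-Co2 had 0 counts in every NOD library and 1, 0 and 0 counts in the NOD.Idd2 libraries. mt-Co3, a structural subunit of complex IV, had 512, 236 and 0 counts in NOD B cells, 541, 305 and 0 in NOD.Idd2 B cells, and 0 in all dendritic cell libraries. mt-Atp6, the proton channel subunit and the only ATP synthase gene of the 43, had 384, 217 and 0 counts in NOD B cells, 400, 219 and 0 in NOD.Idd2 B cells, and 0 in all dendritic cell libraries. All 3 genes were thus listed at or near 0 in 8 of 12 libraries, and replicates 1 and 2 of the B cells were the 4 that had counts. Their copies followed the same libraries: Gm28661 had 580, 324 and 0 counts in NOD B cells, 587, 318 and 1 in NOD.Idd2 B cells and at most 6 in a dendritic cell library.

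mt-Nd3, mt-Nd4l and mt-Atp8, which are not among the 43, were also at 0 in the 6 dendritic cell libraries and in both B cell replicate 3 libraries, with 4 to 44 counts in the other 4. The share of windows found in another annotated transcript was 98% for mt-Nd3, 98.8% for mt-Nd4l and 0 for mt-Atp8. Only annotated transcripts were searched, and the chromosome 1 copy has no annotated pseudogene of mt-Atp8 among those named above. The share of 0 therefore does not show that the sequence of mt-Atp8 is absent from that copy. A count of 0 limits the counted reads to 3 per library, which is 0.07 to 0.346 CPM in these 8 libraries. It says nothing of RNA whose reads were left uncounted. mt-Co2, mt-Co3 and mt-Atp6 passed the filter on low counts in the fit of all 12 libraries and gave adjusted p-values of 0.0185 to 0.0439 for dendritic against B cells by edgeR's quasi-likelihood test, all 3 lower in dendritic cells in both strains. With the replicate numbers as a block their fits gave no usable estimate (standard errors of 17873 or more in both strains). B cell replicate 3 had no counts either. No fold change is given for them, and the mitochondrial genome is described below by the other 6 genes.

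**Figure D1:**
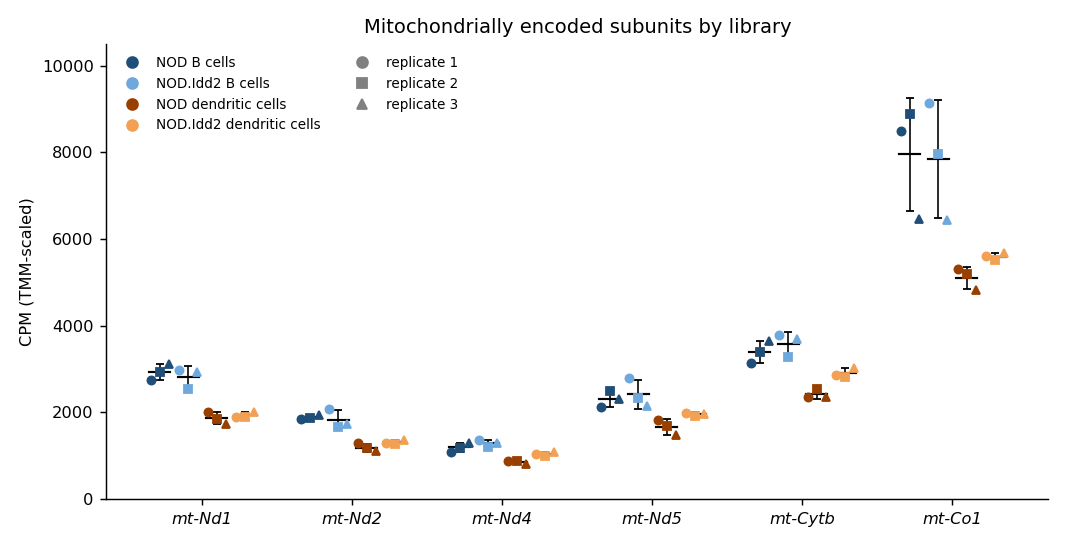
CPM (library sizes scaled by edgeR's TMM) of the 6 mitochondrially encoded subunits that share under 90% of their 50-base windows, by library; points are libraries, shapes replicates, lines and bars the mean and SD of 3. All 6 dendritic cell libraries lie below all 6 B cell libraries for each gene, by under 1 CPM for mt-Nd4, and mt-Co1 is at 6433 to 6470 CPM in B cell replicate 3 against 7962 to 9142 in replicates 1 and 2.

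Of the 6 measurable mitochondrial genes, those of complex I encode membrane subunits of the proton-pumping arm. mt-Nd1, which helps form the ubiquinone site, stood at 2751, 2925 and 3120 CPM in NOD B cells and 2979, 2528 and 2935 in NOD.Idd2 B cells. In dendritic cells mt-Nd1 stood at 2001, 1853 and 1721 CPM in NOD and 1884, 1898 and 2015 in NOD.Idd2. Every dendritic cell library was below every B cell library, and the strains overlapped in both cell types. mt-Nd2, a membrane subunit next to it in the genome, was at 1845, 1856 and 1945 CPM in NOD B cells and 2079, 1658 and 1736 in NOD.Idd2 B cells. mt-Nd2 was at 1285, 1167 and 1098 CPM in NOD dendritic cells and 1281, 1272 and 1363 in NOD.Idd2 dendritic cells, again below all B cell libraries and overlapping between strains.

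mt-Nd4, a pump subunit of the same arm, stood at 1087, 1185 and 1296 CPM in NOD B cells and 1356, 1198 and 1292 in NOD.Idd2 B cells. Its dendritic cell levels were 870, 873 and 815 CPM in NOD and 1026, 991 and 1087 in NOD.Idd2. The NOD.Idd2 dendritic cells were all above the NOD dendritic cells, and the highest of them lay under 1 CPM below the lowest B cell library. mt-Nd5, the subunit at the far end of the arm, was at 2115, 2485 and 2302 CPM in NOD B cells, 2788, 2325 and 2143 in NOD.Idd2 B cells, 1821, 1687 and 1474 in NOD dendritic cells and 1988, 1914 and 1967 in NOD.Idd2 dendritic cells. The strains overlapped in B cells and did not overlap in dendritic cells, and all B cell libraries were above all dendritic cell libraries.

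mt-Cytb encodes cytochrome b, the mitochondrially encoded subunit of complex III. It stood at 3143, 3390 and 3653 CPM in NOD B cells, 3776, 3266 and 3682 in NOD.Idd2 B cells, 2361, 2543 and 2361 in NOD dendritic cells and 2869, 2808 and 3033 in NOD.Idd2 dendritic cells. All NOD.Idd2 dendritic cell libraries were above all NOD dendritic cell libraries. mt-Co1 was at 8496, 8895 and 6470 CPM in NOD B cells, 9142, 7962 and 6433 in NOD.Idd2 B cells, 5304, 5192 and 4821 in NOD dendritic cells and 5604, 5503 and 5666 in NOD.Idd2 dendritic cells. Replicate 3 of the B cells was the lowest of its group in both strains and still above every dendritic cell library. Per kilobase of exon the order of levels in NOD B cells was mt-Co1 (5148 CPM per kb), mt-Nd1 (3064), mt-Cytb (2968), mt-Nd2 (1813), mt-Nd5 (1261) and mt-Nd4 (863). The order is that of counted reads and is not corrected for shared windows (62.2% for mt-Nd4, 51.1% for mt-Co1, 0 for mt-Nd1 and mt-Cytb). If reads from shared windows were left uncounted, mt-Nd4 and mt-Co1 are understated. In NOD B cells mt-Nd1 and mt-Cytb overlapped. mt-Cytb was above mt-Nd1 in the other 3 groups, and their libraries did not overlap in NOD.Idd2 dendritic cells.

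In dendritic cells all 6 measurable mitochondrial subunits had a higher mean in NOD.Idd2 than in NOD, and 2 of them passed the test. mt-Nd4 rose by 0.30 on the log2 scale (SE 0.06, 1.23-fold, adjusted p = 0.0265) and mt-Cytb by 0.28 (SE 0.06, 1.21-fold, adjusted p = 0.0393), by edgeR's quasi-likelihood test, adjusted by Benjamini-Hochberg over all 14441 genes tested in dendritic cells. The fitted log2 fold changes of the others were 0.25 for mt-Nd5 (SE 0.07, adjusted p = 0.141), 0.16 for mt-Nd2 (SE 0.06, adjusted p = 0.365), 0.15 for mt-Co1 (SE 0.06, adjusted p = 0.323) and 0.07 for mt-Nd1 (SE 0.06, adjusted p = 0.743). Thus 2 of 40 subunits tested passed, both of them mitochondrial and both higher, where 1.29% of all genes tested passed and 0.665% passed as higher. All 6 mitochondrial values were above 0, with a median of 0.21 against 0.00 over all genes tested, and the libraries of the strains did not overlap for 4 of them (mt-Nd4, mt-Nd5, mt-Cytb and mt-Co1), where 16.5% of all genes tested did not overlap and 7.06% did so as higher in NOD.Idd2. The 6 come from 1 genome and are not independent of one another.

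The nuclear subunits in dendritic cells showed no such difference that passed the test: 0 of 34 passed by edgeR, 0 had an unadjusted p under 0.05 and 0 passed by DESeq2, where 11.3% of all genes tested had an unadjusted p under 0.05 by edgeR. Their median log2 fold change was 0.03, from -0.09 for Cox8a to 0.22 for Ndufa5, and 22 of 34 were above 0, where 50.2% of all genes tested were. The strains did not overlap for 3 of 34: Ndufs8, an iron-sulfur subunit of complex I, was higher in NOD.Idd2, and Ndufa8 and Cox8a were lower, where 7.06% and 9.41% of all genes tested did not overlap as higher and as lower. These 3 names were chosen after their values were seen. The calls of mt-Nd4 and mt-Cytb depended on which libraries were fitted: without any 1 of the 3 NOD.Idd2 dendritic cell libraries neither passed, with adjusted p-values of 0.0719 to 0.154 for mt-Nd4 and 0.113 to 0.222 for mt-Cytb. Without NOD replicate 3 mt-Cytb was also lost (adjusted p = 0.0673), and in a fit of all 12 libraries neither passed (adjusted p = 0.111 for mt-Nd4 and 0.138 for mt-Cytb), while the log2 fold changes stayed between 0.23 and 0.33.

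**Figure D2:**
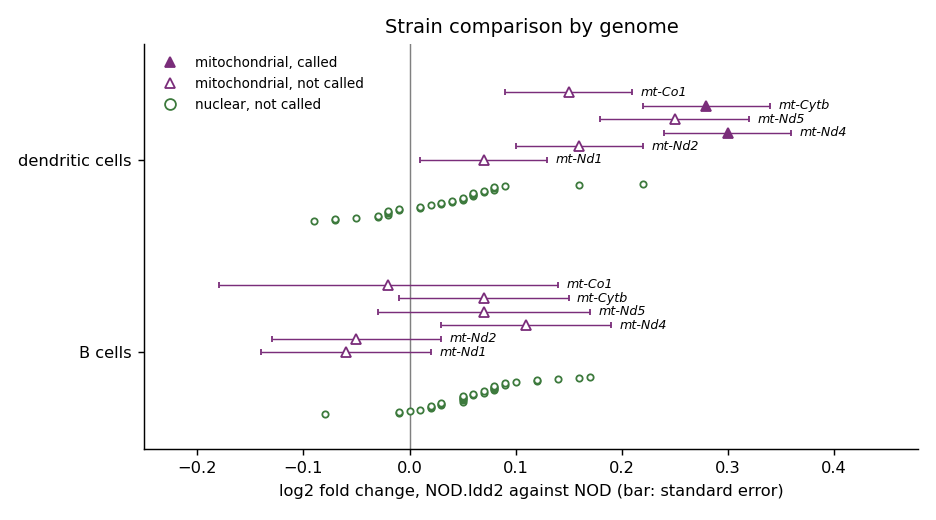
Log2 fold change of NOD.Idd2 against NOD in B cells and in dendritic cells for the 6 measurable mitochondrial subunits (triangles, with standard error) and the 34 nuclear subunits (circles); filled symbols passed an adjusted p of 0.05. In dendritic cells all 6 mitochondrial values lie above 0 (0.07 to 0.30), and in B cells they lie on either side of it (-0.06 to 0.11).

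In B cells no subunit of either genome passed the strain comparison. Of 43 tested, 0 passed by edgeR with or without the replicate numbers as a block and 0 by DESeq2, where 0.16% of all genes tested passed by edgeR without the block and 1.04% with it. Only Cox4i1 had an unadjusted p under 0.05 (adjusted p = 0.774 by edgeR), where 6.4% of all genes did. The mitochondrial log2 fold changes were -0.06 for mt-Nd1 (SE 0.08), -0.05 for mt-Nd2 (SE 0.08), 0.11 for mt-Nd4 (SE 0.08), 0.07 for mt-Nd5 (SE 0.10), 0.07 for mt-Cytb (SE 0.08) and -0.02 for mt-Co1 (SE 0.16). For mt-Nd1, mt-Nd2, mt-Nd5 and mt-Co1 the sign depended on which library was left out. The nuclear subunits had a median of 0.06 against 0.01 over all genes, and 31 of 34 were above 0, where 52.6% of all genes were. None of these 31 passed, and the largest value was 0.17 for Cycs.

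The strains did not overlap in B cells for 3 of 34 nuclear subunits, where 12.8% of all genes tested did not. Cox4i1, the regulatory subunit of complex IV that binds ATP, was at 117, 114 and 115 CPM in NOD and 121, 123 and 125 in NOD.Idd2 (log2 fold change 0.09, SE 0.04). Ndufa2 was at 18, 16 and 18.3 CPM in NOD and 19.3, 18.7 and 19.8 in NOD.Idd2 (log2 fold change 0.14, SE 0.07). Ndufa10 was at 50.6, 48.9 and 50 CPM in NOD and 52.7, 51.6 and 54.2 in NOD.Idd2 (log2 fold change 0.08, SE 0.04). All 3 were higher in NOD.Idd2, as were 6.8% of all genes tested without overlap, and in dendritic cells the strains overlapped for each of them. Cox5a, Cox7a2 and Uqcrc1 lie on chromosome 9, the chromosome of Idd2, and none passed in either cell type.

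The strain effect itself was not shown to differ between the cell types. For the difference of the strain effects (dendritic cells less B cells) 0 of 43 subunits passed by edgeR, 0 had an unadjusted p under 0.05 and 0 passed by DESeq2 or with the replicate block, where 0.109% of all genes tested passed, 0.338% with the block, and 8.22% had an unadjusted p under 0.05. Among the 43, mt-Co3 and mt-Atp6 had no usable estimate of this difference by edgeR (SE 2236.54 and 1119.92). The 6 measurable mitochondrial subunits lay between 0.12 (mt-Nd1, SE 0.10) and 0.19 (mt-Cytb, SE 0.09) on the log2 scale, all above 0, as were 46.2% of all genes tested. The 34 nuclear subunits lay between -0.21 (Ndufa8, SE 0.10) and 0.09, with a median of -0.04.

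Because the mitochondrial genes share their transcripts and their scaling, ratios between them were also formed from the counts of each library. The ratio of mt-Nd1 to mt-Cytb was 0.875, 0.863 and 0.854 in NOD B cells and 0.789, 0.774 and 0.797 in NOD.Idd2 B cells. In dendritic cells the same ratio was 0.848, 0.729 and 0.729 in NOD and 0.657, 0.676 and 0.664 in NOD.Idd2. Every NOD.Idd2 library had a lower ratio than every NOD library of its cell type. mt-Nd1 to mt-Nd4 showed the same order, with 2.53, 2.47 and 2.41 in NOD B cells, 2.20, 2.11 and 2.27 in NOD.Idd2 B cells, 2.30, 2.12 and 2.11 in NOD dendritic cells and 1.84, 1.91 and 1.85 in NOD.Idd2 dendritic cells. By contrast mt-Nd4 to mt-Cytb was 0.350 ± 0.00439 (SD, n = 3), 0.359 ± 0.00795, 0.352 ± 0.0140 and 0.356 ± 0.00285 in the 4 groups in that order and overlapped between strains in both cell types. Of 15 ratios between the 6 genes, 2 did not overlap between strains in B cells, 10 did not in dendritic cells, and 2, both with mt-Nd1, did not in either cell type and were lower in NOD.Idd2 in both. No such count was formed for ratios of other genes. For the levels of single genes, 12.8% of all genes tested did not overlap between strains in B cells and 16.5% in dendritic cells. Some gaps were narrow: in dendritic cells mt-Nd1 to mt-Co1 was at 0.357 or more in NOD and 0.356 or less in NOD.Idd2. These ratios were looked at after the values were seen and are given with no test, and the 15 share their genes.

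**Figure D3:**
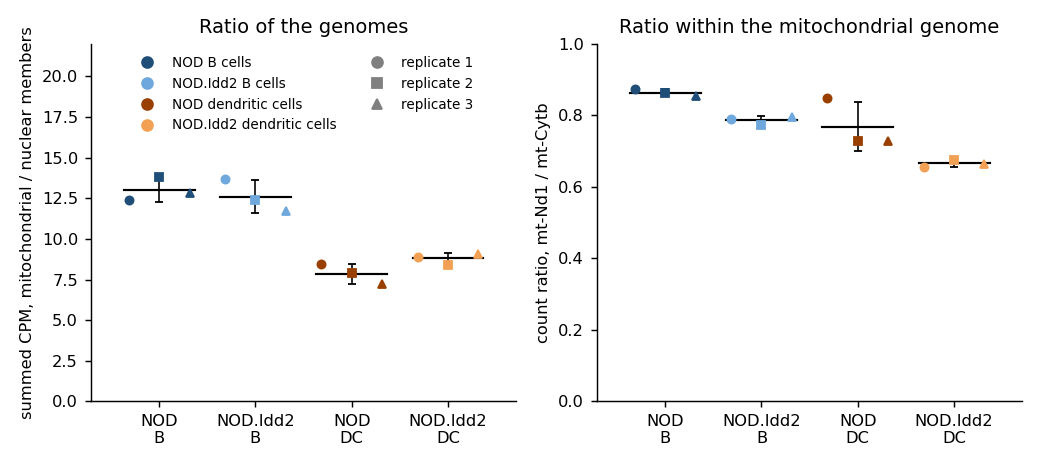
Left, summed CPM of the mitochondrial subunits divided by that of the nuclear subunits; right, counts of mt-Nd1 divided by counts of mt-Cytb; points are libraries, lines and bars the mean and SD of 3 per group. The left ratio is 11.7 to 13.8 in B cells and 7.23 to 9.1 in dendritic cells, and the right ratio is lower in every NOD.Idd2 library than in every NOD library of its cell type.

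Dendritic cells had lower levels of the mitochondrial subunits than B cells, while the nuclear subunits moved in both directions. The mitochondrial subunits summed to 18221 to 22158 CPM in B cells and 12290 to 15131 in dendritic cells, and the nuclear subunits to 1473 to 1621 CPM in B cells and 1617 to 1713 in dendritic cells. The ratio of the sums was 13.0 ± 0.729 (SD, n = 3) in NOD B cells, 12.6 ± 0.983 in NOD.Idd2 B cells, 7.85 ± 0.605 in NOD dendritic cells and 8.80 ± 0.360 in NOD.Idd2 dendritic cells. In bulk RNA, fewer cells of a type and less RNA per cell cannot be told apart, and CPM are shares of the counted RNA. In all, 32 of 43 subunits passed in NOD and 32 in NOD.Idd2, which is 74.4% in each strain, where 76.4% of all genes tested passed in NOD and 75.7% in NOD.Idd2. These counts include mt-Co2, mt-Co3 and mt-Atp6, and without them 29 of 40 passed in each strain (72.5%). The number of subunits that passed was therefore near the background, and what follows concerns direction and size. The NOD and NOD.Idd2 comparisons have no library in common but share the estimate of spread.

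All 6 measurable mitochondrial subunits were lower in dendritic cells in both strains, where 38.7% of all genes tested passed as lower in NOD and 38.9% in NOD.Idd2. In NOD they fell by 0.66 (mt-Nd1, SE 0.07, adjusted p = 3.45e-06), 0.67 (mt-Nd2, adjusted p = 6.41e-06), 0.48 (mt-Nd4, adjusted p = 2.8e-05), 0.47 (mt-Nd5, adjusted p = 0.000721), 0.49 (mt-Cytb, adjusted p = 2.26e-05) and 0.64 (mt-Co1, adjusted p = 0.000444) on the log2 scale, by edgeR's quasi-likelihood test. In NOD.Idd2 they fell by 0.54, 0.48, 0.31, 0.31, 0.30 and 0.49 in the same order, with adjusted p-values of 2.15e-05 to 0.0122. The median was -0.56 in NOD and -0.40 in NOD.Idd2, against -0.04 and -0.06 over all genes tested. mt-Co1 rests partly on B cell replicates 1 and 2: without both replicate 3 libraries it fell by 0.74 in NOD, and with those libraries alone by 0.35 (adjusted p = 0.00118). mt-Nd5 in NOD.Idd2 no longer passed with the replicate 3 libraries alone (-0.14), without NOD.Idd2 B cell replicate 1 (-0.20, adjusted p = 0.0592) or without NOD.Idd2 dendritic cell replicate 3 (-0.27, adjusted p = 0.0514).

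Among the 34 nuclear subunits of the set, directions differed by role. Of 34, 15 were higher and 8 lower in dendritic cells in each strain, where 37.7% of all genes tested passed as higher in NOD and 36.7% in NOD.Idd2. The 6 core subunits of complex I, most of which carry a flavin or iron-sulfur centre, were mostly lower: 5 fell and 1 rose in each strain. The falls of Ndufv1 and Ndufs7 in NOD and of Ndufs8 in NOD.Idd2 did not pass in every alternative fit. The 13 accessory subunits of complex I were mostly higher, with 7 risen and 1 fallen in NOD and 8 risen and 1 fallen in NOD.Idd2. Of 7 nuclear complex IV subunits 5 rose in NOD and 4 in NOD.Idd2 and none fell (Cox5b, at -0.26 and -0.35, did not pass). Of 7 nuclear complex III subunits 2 rose and 1 fell in each strain. The one that fell was Uqcrb in NOD and Cyc1 in NOD.Idd2, and neither fall passed in every alternative fit. Summed by role, the core subunits were at 308 to 326 CPM in B cells and 275 to 283 in dendritic cells, the accessory subunits at 366 to 407 and 446 to 487, complex IV at 354 to 420 and 457 to 497, and complex III at 429 to 464 and 430 to 457. Only the complex III sums overlapped between the cell types.

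**Figure D4:**
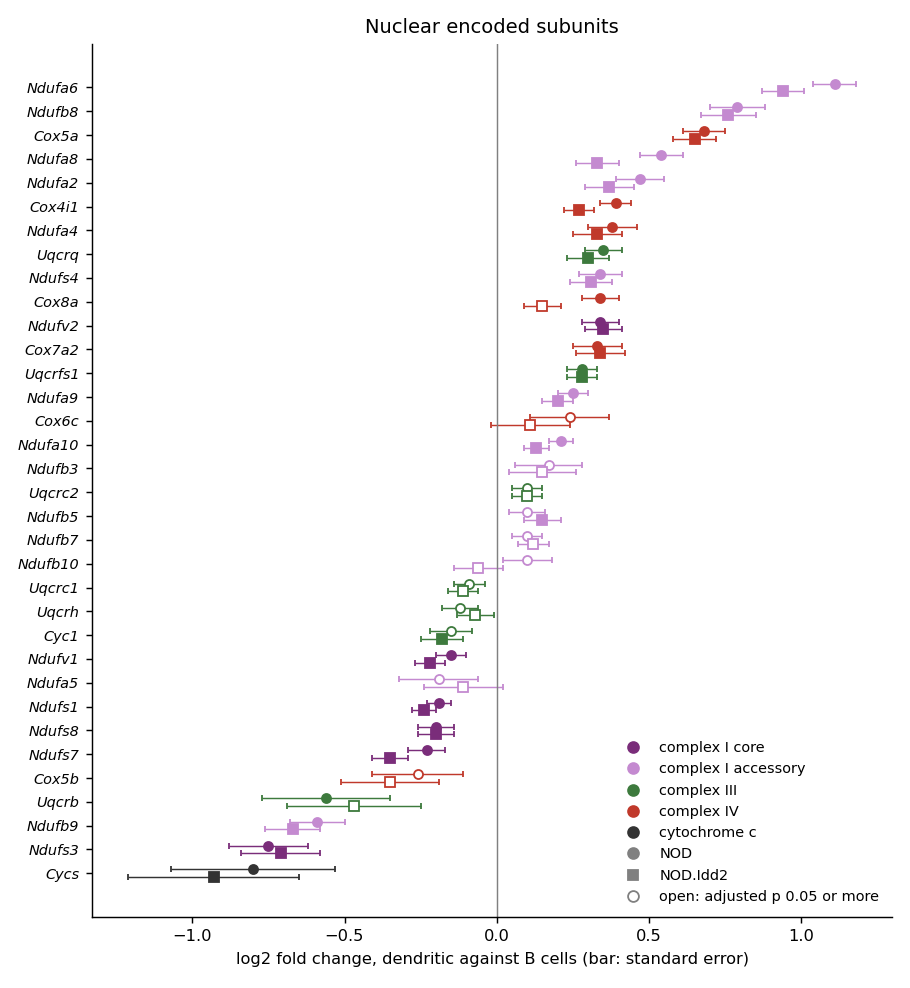
Log2 fold change of dendritic against B cells for the 34 nuclear subunits in NOD (circles) and NOD.Idd2 (squares), coloured by role, with standard errors; open symbols had an adjusted p of 0.05 or more. Ndufa6 is the most raised in dendritic cells (1.11 in NOD, 0.94 in NOD.Idd2), and 5 of the 6 core complex I subunits lie below 0 in both strains.

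Ndufa6, an accessory subunit on the matrix arm of complex I, had the largest rise. It stood at 29.7, 24.9 and 27.5 CPM in NOD B cells, 31.6, 28.1 and 32.1 in NOD.Idd2 B cells, 56.1, 59.8 and 60.9 in NOD dendritic cells and 57.1, 61.8 and 56.7 in NOD.Idd2 dendritic cells. The cell types were far apart and the strains overlapped. The log2 fold change was 1.11 in NOD (SE 0.07, 2.15-fold, adjusted p = 1.98e-08) and 0.94 in NOD.Idd2 (SE 0.07, adjusted p = 1.16e-07) by edgeR. Ndufb8, an accessory subunit of the membrane arm that is often probed as a measure of assembled complex I, was at 22.9, 22.3 and 28.1 CPM in NOD B cells and 23.3, 22.9 and 26.7 in NOD.Idd2 B cells. Ndufb8 reached 41.7, 43.4 and 42.1 CPM in NOD dendritic cells and 40.8, 43.1 and 39.3 in NOD.Idd2 dendritic cells, log2 fold changes of 0.79 and 0.76. Ndufa8 and Ndufa2, also accessory subunits, rose by 0.54 and 0.47 in NOD and by 0.33 and 0.37 in NOD.Idd2. Ndufb9 was the accessory subunit that fell: it was at 24.7, 21.6 and 22.3 CPM in NOD B cells, 25.4, 22.6 and 24.1 in NOD.Idd2 B cells, 15.7, 13.5 and 16.2 in NOD dendritic cells and 15.5, 15.9 and 13.6 in NOD.Idd2 dendritic cells. Its log2 fold change was -0.59 in NOD (SE 0.09, adjusted p = 4.47e-05) and -0.67 in NOD.Idd2.

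Ndufs3, a core subunit of the arm that connects to the ubiquinone site, fell most among the core subunits. It stood at 56.3, 57.6 and 43.4 CPM in NOD B cells, 52.5, 56.2 and 40.2 in NOD.Idd2 B cells, 30, 32.2 and 31.2 in NOD dendritic cells and 30.2, 32.2 and 27.9 in NOD.Idd2 dendritic cells. Replicate 3 was the lowest B cell library in each strain and was still above all dendritic cell libraries. The log2 fold change was -0.75 in NOD (SE 0.13, adjusted p = 0.000136) and -0.71 in NOD.Idd2, and -0.49 (adjusted p = 0.000523) and -0.41 with the replicate 3 libraries as the only B cells. Ndufs7, Ndufs8, Ndufs1 and Ndufv1 fell by 0.23, 0.20, 0.19 and 0.15 in NOD and by 0.35, 0.20, 0.24 and 0.22 in NOD.Idd2. Without NOD dendritic cell replicate 3 Ndufs7 was at -0.15 in NOD and did not pass (adjusted p = 0.0669). The fall of Ndufv1 in NOD did not pass with RLE scaling, by DESeq2 or without both B cell replicate 3 libraries. It was also lost without NOD B cell replicate 2 or 3, NOD dendritic cell replicate 2 or 3, or NOD.Idd2 dendritic cell replicate 1 or 3. Ndufs8 in NOD.Idd2 did not pass without NOD.Idd2 dendritic cell replicate 1 or 3. Ndufv2, an iron-sulfur subunit beside the NADH site, was the core subunit that rose, by 0.34 in NOD and 0.35 in NOD.Idd2.

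In complex IV, Cox5a rose most. This subunit, which surrounds the catalytic core, stood at 47.5, 43.8 and 48.3 CPM in NOD B cells, 49.5, 45.1 and 49.8 in NOD.Idd2 B cells, 69.9, 76.4 and 77.5 in NOD dendritic cells and 70.4, 81.8 and 74.1 in NOD.Idd2 dendritic cells. All dendritic cell libraries were above all B cell libraries. The log2 fold change was 0.68 in NOD (SE 0.07, 1.6-fold, adjusted p = 1.18e-06) and 0.65 in NOD.Idd2 (adjusted p = 2.09e-06) by edgeR. Cox4i1 went from 114 to 125 CPM over the B cell libraries to 142 to 158 over the dendritic cell libraries, a rise of 0.39 in NOD and 0.27 in NOD.Idd2. Ndufa4, named for complex I but known as a subunit of complex IV, rose by 0.38 and 0.33, and Cox7a2 by 0.33 and 0.34. Cox8a rose by 0.34 in NOD and was at 0.15 in NOD.Idd2, where it did not pass (adjusted p = 0.0553, and 0.0189 with the replicate block).

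In complex III, Uqcrq rose by 0.35 in NOD and 0.30 in NOD.Idd2, and Uqcrfs1, the Rieske iron-sulfur protein that hands electrons to cytochrome c1, by 0.28 in each. Uqcrb, which helps bind ubiquinone, was at 34.1, 29.5 and 18.8 CPM in NOD B cells, 33.9, 31.4 and 20.3 in NOD.Idd2 B cells, 16.4, 18.6 and 20.8 in NOD dendritic cells and 19.3, 22.2 and 20.2 in NOD.Idd2 dendritic cells. Replicate 3 of the B cells lay among the dendritic cells. Uqcrb fell by 0.56 in NOD (SE 0.21, adjusted p = 0.0292) and was at -0.47 in NOD.Idd2 (adjusted p = 0.0662, and 0.000119 with the replicate block), and with B cell replicate 3 alone the values were -0.03 and 0.01. In NOD Uqcrb did not pass without B cell replicate 1 (-0.38), B cell replicate 2 (-0.51) or dendritic cell replicate 1 (-0.45), with adjusted p-values of 0.0783 to 0.134. Cycs, cytochrome c, which also takes part in apoptosis once released, was at 6.45, 5.53 and 3.47 CPM in NOD B cells, 7.04, 6.76 and 3.63 in NOD.Idd2 B cells, 2.58, 2.89 and 3.39 in NOD dendritic cells and 3.37, 2.96 and 2.73 in NOD.Idd2 dendritic cells. Its fall of 0.80 in NOD (SE 0.27, adjusted p = 0.0173) and 0.93 in NOD.Idd2 became -0.24 (adjusted p = 0.364) and -0.25 with B cell replicate 3 alone. In NOD Cycs also did not pass without B cell replicate 1 (-0.61, adjusted p = 0.0766) or dendritic cell replicate 1 (-0.68, adjusted p = 0.0693). Cyc1, the cytochrome c1 subunit, fell by 0.18 in NOD.Idd2 (adjusted p = 0.034). This call was lost with RLE scaling, with no filter on low counts and by DESeq2. It was also lost without any 1 dendritic cell library, without NOD.Idd2 B cell replicate 1 or 3, and without both B cell replicate 3 libraries.

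Over all 12 libraries, 15 nuclear subunits were higher in every dendritic cell library than in every B cell library and 6 were lower in every one, where 33.6% and 33.8% of all genes tested were. The other 13 overlapped. The B cell libraries set replicate number 3 apart but did not show numbers 1 and 2 to be pairs. The dendritic cell libraries did not bear out a pairing. Fitting the replicate numbers as a block called 36 subunits in NOD and 34 in NOD.Idd2, where 79.9% and 78.9% of all genes tested were called. In NOD it added Cox5b (-0.24), Cox6c (0.26), Cyc1 (-0.16), Ndufa5 (-0.21), Ndufb3 (0.17), Uqcrc2 (0.10) and Uqcrh (-0.12). In NOD.Idd2 it added Cox5b (-0.34), Cox8a, Uqcrb, Uqcrc1 (-0.11) and Uqcrc2 (0.10). The blocked fit lost only mt-Co2, mt-Co3 and mt-Atp6 in each strain, for which it gave no usable estimate.

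Levels per kilobase of exon ordered the nuclear subunits similarly in the 4 groups. In NOD B cells Uqcrh, the hinge protein of complex III (174 CPM per kb), Cox4i1 (151) and Cox8a (84.3) were highest, and Ndufb8 (10.5), Uqcrq (10.5) and Cycs (1.65) were lowest. In NOD dendritic cells Cox4i1 (198 CPM per kb), Uqcrh (160) and Cox5a (116) were highest, and Ndufa5 (13.8), Uqcrq (13.4) and Cycs (0.946) were lowest. Ndufb8 and Uqcrq overlapped between libraries in the first order, as did Ndufa5 and Uqcrq in the second. The median over nuclear subunits was 35.0 CPM per kb in NOD B cells and 35.6 in NOD dendritic cells, against 2390 and 1541 over the 6 measurable mitochondrial subunits. Exon lengths were those of all annotated exons of a gene, so levels of genes with long rarely used ends are understated. Shared windows were not taken into account in these levels either.

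The nuclear subunits that were low in B cell replicate 3 were mostly those with a copy elsewhere in the genome. In both strains 7 of 34 nuclear subunits were lower in replicate 3 than in replicates 1 and 2: Ndufs3, Ndufb3, Uqcrb, Cycs, Cox5b, Cox6c and Cox8a. Over all genes tested 14.4% were lower. Among the 7 nuclear subunits that shared most 50-base windows with a gene elsewhere, 6 were lower in replicate 3, with ratios of replicate 3 to replicates 1 and 2 from 0.55 (Cycs, copy Gm10053) to 0.823 (Ndufb3, copy Gm45930). Uqcrh, with a copy on chromosome 15, was the exception at a ratio of 1. Among the 9 that shared most windows with an overlapping or adjoining gene, such as Cox4i1 with Emc8, 0 were lower, and among the 18 with no shared window 1 was lower (Cox8a, ratio 0.898). Of the 7 mitochondrial subunits that shared most windows with a gene elsewhere, 4 were lower in replicate 3. The others included mt-Nd4, with 62.2% of windows shared and a ratio of 1.07. These sets were formed after the values were seen and are given as a description. The part of shared sequence in the levels of B cell replicate 3 was not tested.

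**Figure D5:**
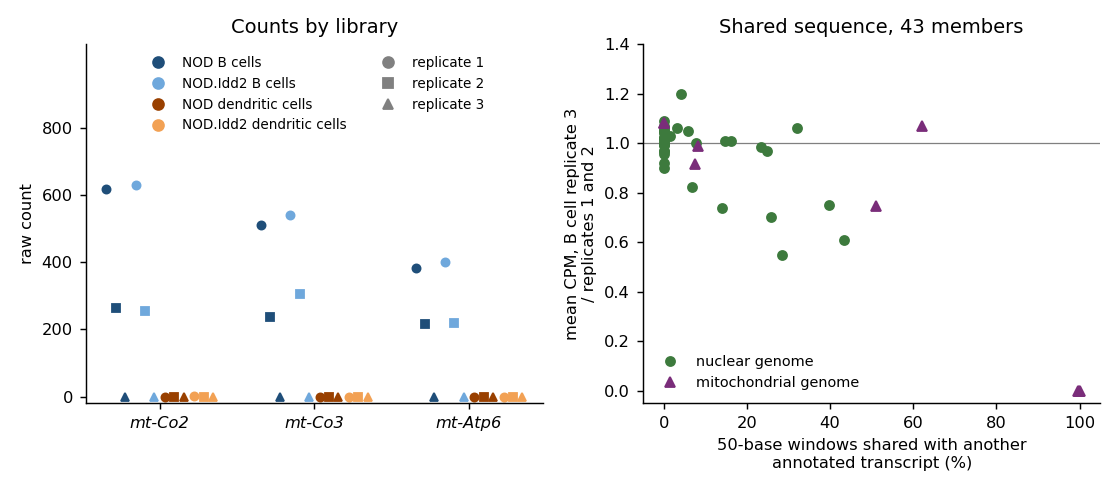
Left, raw counts of mt-Co2, mt-Co3 and mt-Atp6 by library; right, for the 43 subunits, the mean CPM of B cell replicate 3 divided by that of replicates 1 and 2 against the percentage of 50-base windows shared with another annotated transcript. The 3 mitochondrial genes with nearly all windows shared lie at a ratio of 0, and the nuclear subunits with ratios under 0.85 share 6.72% to 43.4% of their windows.

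Promoter windows (250 bases before to 50 after the start, RefSeq, GRCm38.p6) were in the table for 25 of 34 nuclear subunits. They were searched on both strands for GCGCA and GCGC with 1 base of any kind between them (the motif of NRF1, a regulator of respiratory genes), CCGGAAG (the ETS family, which includes the regulator GABP) and AAGATGGC (YY1). The NRF1 letters were in 4 of 25 (16%, against 5.19% of all genes in the table and 10.9% of the genes tested), the ETS letters in 5 (20.0%, against 9.93% and 19.5%) and the YY1 letters in 4 (16%, against 3.19% and 5.1%). None of the 3 was in 12 of 25, and no window held more than 1 of them, so matches of different motifs did not overlap. Ndufa6 and Ndufa8, which rose in dendritic cells, held the NRF1 letters, as did Uqcrc1 and Ndufa5, which did not pass. Ndufs3, Ndufs8, Ndufb7, Uqcrh and Cox8a held the ETS letters, and Ndufb8, Ndufa9, Ndufs4 and Ndufs7 the YY1 letters. The windows of the 3 subunits that changed most within each motif are shown with the match in capitals, at chr15:82354242-82354541 for Ndufa6, chr2:90904672-90904971 for Ndufs3 and chr19:44555393-44555692 for Ndufb8, all on the minus strand.
Ndufa6: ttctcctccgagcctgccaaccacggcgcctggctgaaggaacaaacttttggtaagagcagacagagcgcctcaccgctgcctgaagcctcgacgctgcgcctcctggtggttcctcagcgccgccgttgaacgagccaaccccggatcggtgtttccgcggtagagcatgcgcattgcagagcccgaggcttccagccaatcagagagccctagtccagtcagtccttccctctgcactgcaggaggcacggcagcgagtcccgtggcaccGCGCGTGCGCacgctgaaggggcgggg
Ndufs3: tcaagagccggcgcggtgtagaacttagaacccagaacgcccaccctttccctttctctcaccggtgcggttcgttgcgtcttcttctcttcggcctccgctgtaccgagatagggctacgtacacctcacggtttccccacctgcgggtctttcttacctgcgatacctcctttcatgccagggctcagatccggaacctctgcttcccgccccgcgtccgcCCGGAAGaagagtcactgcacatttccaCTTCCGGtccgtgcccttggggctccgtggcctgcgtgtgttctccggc
Ndufb8: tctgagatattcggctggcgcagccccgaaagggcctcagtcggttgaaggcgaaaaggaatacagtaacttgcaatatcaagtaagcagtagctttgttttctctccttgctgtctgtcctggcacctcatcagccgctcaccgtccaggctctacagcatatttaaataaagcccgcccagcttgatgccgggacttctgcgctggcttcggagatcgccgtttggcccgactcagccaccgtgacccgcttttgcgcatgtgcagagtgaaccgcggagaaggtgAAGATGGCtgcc
Genes with the same letters moved in opposite directions between cell types (Cox8a rose and Ndufs3 fell with ETS letters in NOD), and a match describes the window only.

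The other genes of the pathway were read from lists of the remaining subunits and of the factors that build and express them. None of these lists had a gene that passed in either strain comparison, by edgeR with or without the replicate block. Among 17 tested other subunits and inhibitors of ATP synthase, 6 rose and 2 fell in dendritic cells in NOD. With the replicate block 8 rose and 5 fell, where 39.2% and 40.7% of all genes tested did. Without the block 37.7% of all genes tested rose and 38.7% fell in NOD. These 2 shares also apply to the NOD counts of rises and falls that follow. Atpif1, the inhibitor that binds the enzyme when the proton gradient fails, went from 15.2 ± 0.296 CPM (SD, n = 3) in NOD B cells to 58.4 ± 3.12 in NOD dendritic cells (log2 fold change 1.94, adjusted p = 2.94e-12 by edgeR). Atp5o, part of the peripheral stalk, went the other way, from 51.2 ± 3.88 to 20.4 ± 1.63 CPM (-1.33, adjusted p = 5.93e-09). Atp5e rose by 0.47 and Atp5g3 fell by 0.26. Of 20 other complex I subunits 4 rose and 2 fell, led by Ndufc2 (0.86), Ndufa13 (0.49), Ndufab1 (-0.84) and mt-Nd6 (-0.61), the subunit on the other mitochondrial strand. Without both B cell replicate 3 libraries 10 of the 20 passed, and the share of all genes that passed in that fit is not given here. Of 7 other complex III and IV subunits 5 rose and 1 fell, with Uqcr10 at 0.37, Cox6b1 at 0.35 and Cox7c at -0.63 (-0.22 and not passing with B cell replicate 3 alone). Of 4 complex II subunits, which are all nuclear, 1 rose (Sdhd, 0.18). Cox6b2, a complex IV isoform known from testis, was the 1 gene tested of 6 tissue-restricted isoforms and rose from 0.791 ± 0.287 to 4.58 ± 0.102 CPM (2.53).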

How the data were processed

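Poly(A) RNA-seq libraries of 4 groups of 3 (NOD and NOD.Idd2, splenic B cells and dendritic cells) were analysed from the raw count table that the authors deposited, which gives whole-number counts per gene symbol. Reads were aligned with STAR 0.12.2 to GRCm38, per the submitters' processing notes, and the version is given as they state it. No counting tool, annotation, strand setting or read length is given in the sources used here, and the deposited normalized table was not used. Counts were fitted with edgeR 4.0.16 (TMM scaling, genes kept by filterByExpr, minimum count 10, minimum total 15, quasi-likelihood test) in R 4.3.3 with limma 3.58.1. Each strain comparison was fitted on the 6 libraries of its cell type, and the cell type comparisons and the difference of strain effects on all 12. P-values were adjusted by Benjamini-Hochberg over all genes tested, called under 0.05, and the calls were checked with DESeq2 1.42.0. The script was tested on simulated data.

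The members, gene lists, roles and tests were chosen with earlier results of these data known. By rule the text names every mitochondrial subunit, nuclear subunits called between strains, the 6 largest changes in either direction between cell types in NOD, the 3 highest and lowest per length, those on chromosome 9, and the 2 largest changes in either direction of each other list. Other names were chosen after their values were seen.

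Libraries hold 8663421 to 44632276 counts, and floors cover counting error only. Every pair of libraries within a group differed by more than sampling noise (lowest chi-square per gene 3.12). Whether replicate numbers pair the strains was checked from the deviations from group means over 16588 genes. In B cells they correlated at 0.519, 0.326 and 0.753 for numbers 1, 2 and 3. Numbers 1 and 2 also correlated crosswise (0.355 and 0.395), above the 0.326 of number 2 with itself. The correlations thus set number 3 apart but do not show that numbers 1 and 2 are pairs. In dendritic cells the deviations correlated at 0.012, 0.0141 and 0.0612, and the numbers were not taken as pairs. Shared sequence was counted as 50-base windows of the longest transcript found in any other GENCODE M21 transcript, and promoters came from RefSeq (GRCm38.p6). Alternatives were RLE scaling, scaling without mitochondrial genes, no filter, the replicate block, DESeq2, a fit of all 12 libraries and leaving out each library.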

Additional observations from a re-analysis of the deposited data

How the results depend on the processing

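The count of subunits passing between strains in dendritic cells, 2, became 4 with no filter on low counts (mt-Co1 and mt-Nd5 added), 0 with the replicate block (adjusted p = 0.0533 for mt-Nd4 and 0.0859 for mt-Cytb; the numbers do not pair these libraries), 0 in the fit of all 12 libraries, 3 by DESeq2 (mt-Nd5 added, adjusted p = 0.0152) and 0 to 3 with a library left out. It was 2 under both other scalings. In B cells and for the difference of strain effects it was 0 under every alternative, the replicate block included. Between cell types it was 32 in each strain and ranged over 29 to 34 in NOD and 27 to 36 in NOD.Idd2 with a library left out, and 36 and 34 with the replicate block. Chosen after seeing the data, leaving out both B cell replicate 3 libraries gave 33 and 36, and those libraries alone 28 and 25, where 1 library a strain is assumed to vary like the others. The log2 ratio of nuclear sums in NOD.Idd2 was 0.13 with RLE scaling against 0.09. Values not called changed sign. Between strains in B cells, leaving out a library gave -0.11 to 0.01 for mt-Nd1, -0.15 to 0.02 for mt-Nd2, -0.04 to 0.14 for mt-Nd5, -0.15 to 0.10 for mt-Co1 and -0.06 to 0.07 for Cox7a2; leaving out both replicate 3 libraries gave 0.00 for mt-Nd2 and -0.04 for Cox7a2. In dendritic cells it gave -0.03 to 0.09 for Cox5a and -0.03 to 0.07 for Cox7a2. With B cell replicate 3 alone, Cox5b was at 0.09 in NOD and 0.00 in NOD.Idd2, and Uqcrb at 0.01 in NOD.Idd2. The cause was not tested. The shallowest library, of 8663421 counts, is in a dendritic cell group.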

Other observations

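Most listed genes that copy and express the mitochondrial genome were lower in dendritic cells than in B cells. Of 27 listed genes, all tested, 20 fell and 2 rose in NOD and 21 fell and 2 rose in NOD.Idd2 by edgeR's quasi-likelihood test, with a median log2 fold change of -0.42 in each strain against -0.04 and -0.06 over all genes tested, where 38.7% and 38.9% of all genes passed as lower. Mterf2, which binds the mitochondrial promoter region, went from 19.8 ± 0.959 CPM (SD, n = 3) in NOD B cells to 2.12 ± 0.469 in NOD dendritic cells (log2 fold change -3.22, adjusted p = 5.42e-11). Polg, the catalytic subunit of the mitochondrial DNA polymerase, went from 151 ± 9.58 to 58.6 ± 4.37 CPM (-1.37, adjusted p = 6.02e-10). Slirp, which stabilises mitochondrial mRNAs, and Tefm, the elongation factor of the mitochondrial polymerase, rose by 0.38 and 0.37, and Slirp did not pass with B cell replicate 3 alone. Of 77 tested mitochondrial ribosomal proteins 31 fell and 14 rose in NOD and 39 fell and 9 rose in NOD.Idd2 (medians -0.08 and -0.20), with Mrpl22 at -0.89, Mrpl23 at -0.81, Mrpl33 at 1.21 and Mrpl14 at 0.96. Any relation of these lists to the mitochondrially encoded subunits was not tested.

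Of 9 nuclear regulators of respiratory genes, 3 rose and 5 fell in dendritic cells in each strain, where 37.7% and 38.7% of all genes tested rose and fell in NOD. The coactivators went opposite ways: Ppargc1a was at 0.249 ± 0.0454 CPM (SD, n = 3) in NOD B cells and 3.42 ± 0.723 in NOD dendritic cells (log2 fold change 3.77, adjusted p = 4.27e-08 by edgeR), and Ppargc1b at 9.71 ± 0.0542 and 1.61 ± 0.0624 (-2.59, adjusted p = 4.72e-08). Esrra, a nuclear receptor that works with them, rose by 1.45 and Nrf1 fell by 0.56. Of 40 tested assembly factors 10 rose and 15 fell in NOD, with Cox16 at 1.55, Uqcc2 at 1.04, Lyrm7 at -1.41 and Coa7 at -0.94. In these lists 0 genes passed in either strain comparison by edgeR, with or without the replicate block.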
